A study of Xenopus laevis with 6 samples.

Results

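Galectins, intelectins and chitotriosidase were followed in cultured Xenopus laevis ectoderm after knockdown of ERK3 or of TFAP2A. Members were all probe sets whose gene symbol on the array platform begins with lgals, itln or chit1. This rule gave 18 of the 11303 genes named on the array, with 19 of the 32539 probe sets tested. Of the 19, 16 belong to galectin or galectin-like genes, 2 to intelectins and 1 to a chitinase. The families were chosen by the intensities of 2 of these probe sets, lgals4.1.s with the ERK3 morpholinos and chit1.S with the TFAP2A morpholinos, which had stood out against control caps on these same arrays. Values of lgals4.1.s and chit1.S are therefore given as a description, with no test, and tests are given for the other 17 probe sets.

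Animal caps are explants of the blastula roof that turn into mucociliary epidermis when left untreated in culture. Embryos from in vitro fertilization were injected at the 4-cell stage, on the animal side of each cell, with morpholinos, antisense oligonucleotides that block translation or splicing of a transcript. The control group received 80 ng of a control morpholino (Control MO), and the knockdown groups received 40 ng of each of a pair against ERK3 (ERK3 MO1/2), an atypical MAP kinase, or against TFAP2A (TFAP2A MO1/2), an ectodermal transcription factor. Caps were cut at stage 9 and harvested untreated at stage 15, with 2 arrays in each of the 3 groups, which the labels call biological replicates; the series title places the comparison in the study of epithelial architecture.

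Galectins are soluble proteins that bind beta-galactosides, mostly N-acetyllactosamine, on cell-surface and secreted glycoproteins, and cross-link them. Galectin-1 is a small prototype galectin, galectin-3 joins a carbohydrate-recognition domain to a flexible tail, and galectins 4, 8 and 9 carry a pair of such domains in tandem. Intelectins are secreted lectins that bind glycans of microbes; in the Xenopus embryo an intelectin, embryonic epidermal lectin or XEEL, is a product of the mucus-secreting epidermal goblet cells. Chitotriosidase is a secreted chitin-cleaving enzyme, best known in humans from activated macrophages.

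Values are probe set intensities on a linear scale, normalized by the robust multiarray average (RMA). Changes are differences of log2 intensity with the standard error (SE) of limma's moderated fit, and a change passed the test at a Benjamini-Hochberg adjusted p under 0.05 over all probe sets. Each array had a median of 23.2 to 24.6 and a lower quartile of 6.36 to 6.96. Across probe sets, which are not independent, log2 values correlated at 0.987 to 0.989 within groups and 0.962 to 0.983 between groups. The 3′ gapdh control read 296.2 and 335.4 in control caps, 42.1 and 84.2 with ERK3 MO1/2 and 180.5 and 242.5 with TFAP2A MO1/2, and its log2 ratio of 3′ to 5′ signal lay between 0.76 and 1.34. The same ratio lay between 10.67 and 11.25 for the actin control and between -1.25 and -0.94 for the ef1a control. Morpholinos that block translation need not lower their transcript, and whether TFAP2A protein was lower was not tested. For tfap2a.L, intensities were 1126 and 753.4 in control caps and 1495 and 1287 with TFAP2A MO1/2. This was a change of 0.59 ± 0.23 (limma adjusted p = 0.171), and tfap2a.S changed by 0.24 ± 0.18 (0.471). With ERK3 MO1/2 tfap2a.S rose by 0.89 ± 0.18 (0.0362), and tfap2a.L changed by 0.81 ± 0.23 and did not pass (0.0847). The transcript of ERK3 was not analysed here: 0 of the probe sets with a gene symbol are named mapk6 or mapk4, the symbols searched for it. Probe sets differ in how strongly they hybridize, so intensities are compared between arrays and not between genes.

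Among the galectin-4 genes, lgals4.1.s was higher in both knockdowns, and more so with ERK3 MO1/2. In mammals galectin-4 is a galectin of the gut epithelium that takes part in apical delivery of glycoproteins. The intensity of lgals4.1.s was 5.72 and 6.96 in control caps, 58.9 and 58.1 with ERK3 MO1/2, and 20.0 and 23.6 with TFAP2A MO1/2. The 3 groups did not overlap, in the order control, TFAP2A, ERK3. Against control caps the change was 3.21 ± 0.16 log2 units (SE with 2 arrays in each group), or 9.27-fold, for ERK3 MO1/2 and 1.78 ± 0.16, or 3.44-fold, for TFAP2A MO1/2. Replicates of a group differed by 0.02 to 0.28 log2 units. The control values sat near the lower quartile of their arrays, and with 16 added to every intensity before the log the changes were 1.74 and 0.76.

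Of the other galectin-4 probe sets, none passed the test. The gene lgals4.2.L, which RefSeq places near lgals4.1.L on the L subgenome, read 60.5 and 67.5 in control caps, 117.1 and 90.6 with ERK3 MO1/2, and 59.4 and 61.1 with TFAP2A MO1/2. Both ERK3 arrays lay above all other arrays. The change of 0.69 ± 0.16 with ERK3 MO1/2 did not pass (limma adjusted p = 0.0504), but did so with probe sets below the median left out (0.0413), with median-centred arrays (0.0392) and with arrays quantile-normalized again (0.0435). It did not pass with 16 added before the log (0.0605), with a trended, robust variance (0.0607), in a fit of the 4 arrays compared (0.0925) or with any array left out (0.0522 to 0.184). With TFAP2A MO1/2 the change was -0.08 ± 0.16 (adjusted p = 0.806), and between the knockdowns it was 0.77 ± 0.16, higher with ERK3 MO1/2 (adjusted p = 0.0565), which passed with probe sets below the median left out (0.0449) and with median-centred arrays (0.0479) but not with any array left out (0.0841 to 0.215). The L copy of lgals4.1, lgals4.1.L, stayed under the lower quartile on all 6 arrays, with intensities of 3.93 and 5.47 in control caps, 6.55 and 6.0 with ERK3 MO1/2 and 4.79 and 4.78 with TFAP2A MO1/2. No fold is given for lgals4.1.L, since all groups were that low, and limma did not call it (adjusted p = 0.188 and 0.917). Galectin-4 genes are related in sequence, and hybridization of their transcripts to each other's probes was not tested.

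**Figure D1:**
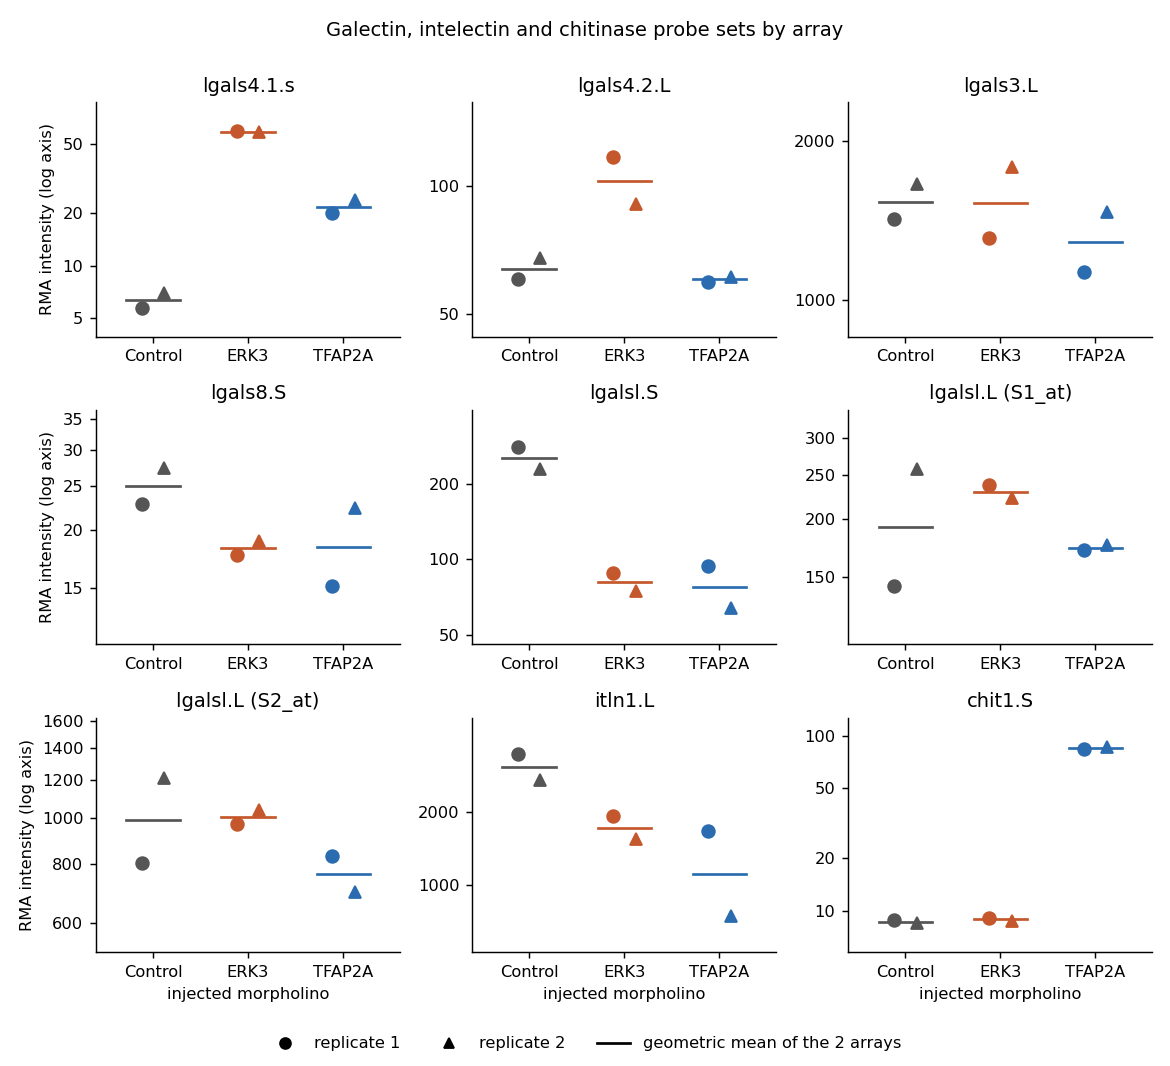
RMA intensity (log axis, a separate scale for each panel) of the 9 member probe sets that reach the median probe set in at least 1 group, for control, ERK3 and TFAP2A morpholino caps. Circles are replicate 1, triangles replicate 2 and bars the geometric mean of the 2 arrays; S1_at and S2_at are the 2 probe sets of lgalsl.L. The ERK3 arrays of lgals4.1.s read 58.9 and 58.1 and the TFAP2A arrays of chit1.S 84.4 and 86.4, apart from the control arrays of the same gene.

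The chitinase gene chit1.S was higher with TFAP2A MO1/2 and not with ERK3 MO1/2. Intensities were 8.84 and 8.48 in control caps, 9.15 and 8.80 with ERK3 MO1/2, and 84.4 and 86.4 with TFAP2A MO1/2. Control and ERK3 arrays overlapped, and the TFAP2A arrays stood apart from all 4 of them. Relative to control caps it differed by 3.30 ± 0.12 log2 units, or 9.86-fold, for TFAP2A MO1/2 and by 0.05 ± 0.12 for ERK3 MO1/2. Replicates of a group differed by 0.03 to 0.06 log2 units. The control and ERK3 values sat well below the median of their arrays and not far above the lower quartile. With 16 added before the log the TFAP2A change was 2.04.

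Of the intelectins, itln1.L, a gene for which RefSeq lists the name xeel, gave a bright signal and read lower on each knockdown array than on either control array. Its intensity was 3499 and 2720 in control caps, 1925 and 1546 with ERK3 MO1/2, and 1666 and 740.3 with TFAP2A MO1/2. The knockdown groups overlapped each other, and the TFAP2A replicates differed by 1.17 log2 units. The change of itln1.L did not pass for ERK3 MO1/2, at -0.84 ± 0.38 (limma adjusted p = 0.222), or for TFAP2A MO1/2, at -1.47 ± 0.38 (0.0625). The latter was -0.89 without TFAP2A MO1/2 replicate 2 (adjusted p = 0.142) and -2.06 without TFAP2A MO1/2 replicate 1, where it passed (0.0423). It also passed with probe sets below the median left out (0.0496). In whole explants, fewer cells of a type and less RNA per cell cannot be told apart. The second intelectin, itln2.L, read 3.39 to 4.48 over the 6 arrays, under the lower quartile on each.

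The galectin-like gene lgalsl.S fell in both knockdowns. Its human counterpart, galectin-related protein, keeps the galectin fold but does not bind lactose. Intensities of lgalsl.S were 281.7 and 228.6 in control caps, 88.5 and 74.8 with ERK3 MO1/2, and 94.4 and 64.0 with TFAP2A MO1/2. All 4 knockdown arrays lay below both control arrays, while the knockdown groups overlapped each other. With ERK3 MO1/2 it fell by 1.64 ± 0.23 (limma adjusted p = 0.0146), with TFAP2A MO1/2 it fell by 1.71 ± 0.23 (0.0129), and the difference between the knockdowns was 0.07 ± 0.23 (0.920). With an array left out, a group of 1 array takes its spread from the other groups. The ERK3 change was then -1.79 to -1.49, and its call was lost without Control MO replicate 1 or 2 (adjusted p = 0.0716 and 0.0688) and without ERK3 MO1/2 replicate 1 or 2 (0.0646 and 0.0542). The TFAP2A change was -1.99 to -1.43, and its call was lost without Control MO replicate 1 or 2 (0.0621 and 0.0652) and without TFAP2A MO1/2 replicate 2 (0.0678).

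The L copy of the galectin-like gene did not pass in either knockdown. Its first probe set read 143.7 and 257.6 in control caps, 237.4 and 222.0 with ERK3 MO1/2, and 171.7 and 176.1 with TFAP2A MO1/2. For this probe set of lgalsl.L the control arrays spanned those of both knockdowns. Its second probe set read 803.7 and 1214 in control caps, 969.8 and 1035 with ERK3 MO1/2, and 830.6 and 696.2 with TFAP2A MO1/2, and only TFAP2A MO1/2 replicate 2 lay outside the control range. Changes of lgalsl.L over both probe sets were 0.26 ± 0.27 and 0.02 ± 0.22 with ERK3 MO1/2 (adjusted p = 0.601 and 0.964) and -0.15 ± 0.27 and -0.38 ± 0.22 with TFAP2A MO1/2 (0.798 and 0.343). Whether the L and S copies differ in their change was not tested.

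Galectin-3, which in mammals organises glycoproteins at the apical surface of epithelia, gave a bright signal and did not pass. Intensities of lgals3.L were 1423 and 1659 in control caps, 1312 and 1785 with ERK3 MO1/2, and 1131 and 1470 with TFAP2A MO1/2. All 3 groups overlapped, with replicate 2 above replicate 1 in each. For lgals3.L the change was -0.01 ± 0.21 after ERK3 knockdown (limma adjusted p = 0.990) and -0.25 ± 0.21 after TFAP2A knockdown (0.527). Galectin-8, a tandem-repeat galectin that in human cells marks damaged endosomes, read 22.8 and 27.3 in control caps, 17.7 and 19.0 with ERK3 MO1/2, and 15.1 and 22.3 with TFAP2A MO1/2. Both knockdowns lay below the control arrays of lgals8.S, by -0.45 ± 0.21 and -0.44 ± 0.21, and neither change passed (0.242 and 0.252).

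The other 10 probe sets stayed below the median probe set in every group, 6 of them under the lower quartile on all arrays. These 6 were itln2.L, lgals1.1.L, lgals1.1.S, lgals1.3.S, lgals4.1.L and lgals9c.L, at intensities of 3.23 to 6.55. They include 3 of the 4 probe sets of the galectin-1 genes lgals1.1 and lgals1.3, prototype galectins that lie close together in both subgenomes. Among the galectin-9 genes, tandem-repeat galectins known in mammals for actions on immune cells, lgals9b.L rose with ERK3 MO1/2, from 3.88 and 5.01 in control caps, under the lower quartile, to 7.65 and 9.79. TFAP2A knockdown caps read 4.41 and 5.14 for lgals9b.L, overlapping the control arrays. Its fitted change with ERK3 MO1/2 was 0.97 ± 0.20 (limma adjusted p = 0.0347). The mean of the 2 ERK3 arrays was 1.34-fold the lower quartile of the control arrays, a ratio given without an error. ERK3 MO1/2 replicate 1, at 7.65, lay close to the lower quartile of its own array, 6.96. With an array left out the change was 0.79 to 1.16, and the call was lost without any 1 of the 6 arrays. The call was also lost with 16 added before the log (limma adjusted p = 0.0738) and in a fit of the 4 arrays compared (0.0613). The remaining 3, lgals1.3.L, lgals9.L and lgals9c.S, read between 5.95 and 19.2, with changes of 0.09 to 0.13 with ERK3 MO1/2 and 0.01 to 0.31 with TFAP2A MO1/2, none of which passed. RefSeq lists 7 further galectin and intelectin genes, among them lgals2.L, lgals12.L and lgals3.S, which were not analysed here.

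Over the 17 probe sets tested, 1 rose and 1 fell with ERK3 MO1/2, beside 4.49% higher and 6.09% lower of all probe sets. With TFAP2A MO1/2, 0 rose and 1 fell, beside 5.3% higher and 6% lower of all. In the direct comparison limma called 0 of 17, beside 2.28% of all probe sets higher and 2.49% lower with ERK3 MO1/2. At an unadjusted limma p under 0.05 there were 2 of the 17 in the direct comparison, beside 6727 of all 32539 probe sets. Against control caps there were 3 with ERK3 MO1/2, beside 9057 of all, and 2 with TFAP2A MO1/2, beside 8927. For the 17 the median change with ERK3 MO1/2 was 0.07, against 0.04 over all probe sets, and for TFAP2A MO1/2 it was -0.06, against 0.02. Both knockdowns were compared with the same control arrays.

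**Figure D2:**
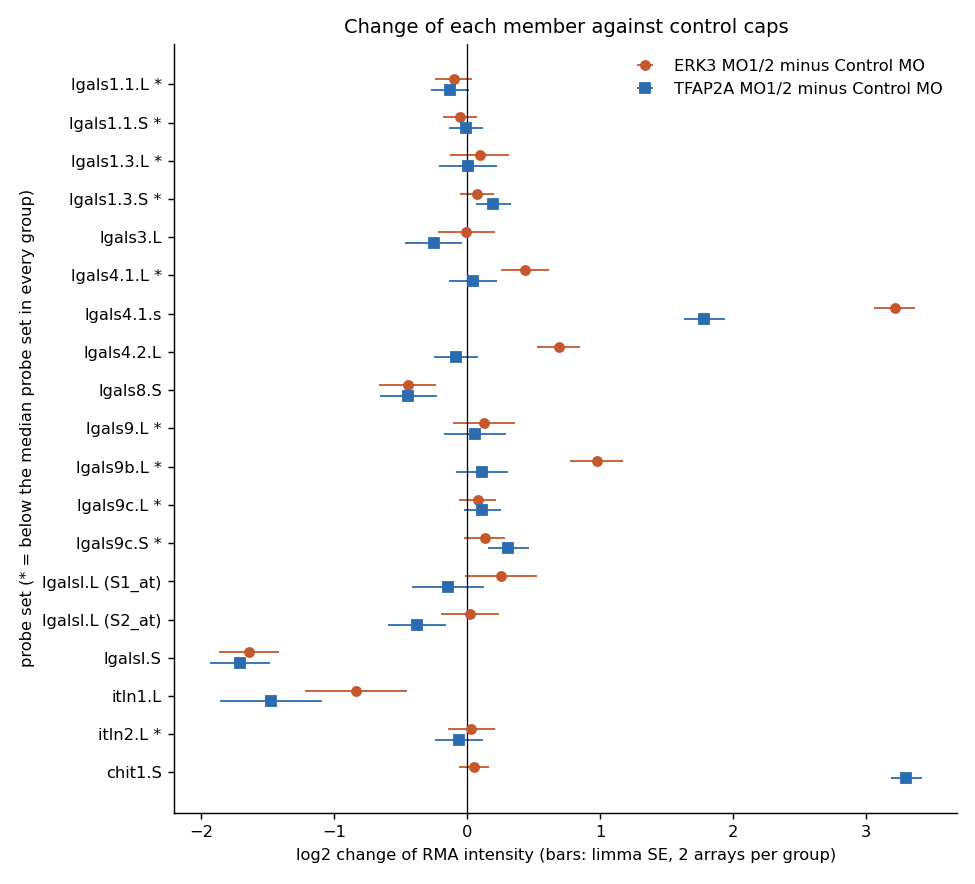
Log2 change of RMA intensity against control caps for the 19 member probe sets, with ERK3 MO1/2 as circles and TFAP2A MO1/2 as squares; bars are the SE of limma's fit with 2 arrays per group. The widest changes are those of lgals4.1.s (3.21 and 1.78), chit1.S (0.05 and 3.30), lgalsl.S (-1.64 and -1.71) and itln1.L (-0.84 and -1.47), and probe sets marked with an asterisk are those below the median probe set in every group.

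The genes most like lgals4.1.s in pattern were found by distance, the root of the summed squared log2 differences over the 6 arrays after centring on the control mean. Among 10960 to 10974 candidate genes the nearest were gpx1.S, a glutathione peroxidase gene, at 1.09 log2 units, itgb1bp2.L at 1.12, hal.2.L, the histidine ammonia-lyase gene, at 1.35, golga2.S, a Golgi matrix protein gene, at 1.39, and ssu72.L, an RNA polymerase phosphatase gene, at 1.40. Their changes were 2.27 to 3.96 with ERK3 MO1/2 and 1.18 to 2.43 with TFAP2A MO1/2, an order that the choice by distance fixes. For chit1.S the nearest were pgk1, a glycolytic enzyme gene, at 1.33, tmem169.L at 1.70, micu2.S, a regulator of the mitochondrial calcium uniporter, at 1.93, vps4a.L, an ESCRT ATPase gene, at 1.96, and nlk.L, a MAPK-like kinase gene, at 1.97. Their changes with TFAP2A MO1/2 were 1.94 to 2.49, all below the 3.30 of chit1.S. The nearest to itln1.L lay closer, at 0.44 to 0.53, and were zcchc10.L, yipf1.L, pde12.S, icmt.S and rrbp1.L. Of these, rrbp1.L encodes a ribosome-binding protein of the rough endoplasmic reticulum and yipf1.L a Golgi membrane protein.

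**Figure D3:**
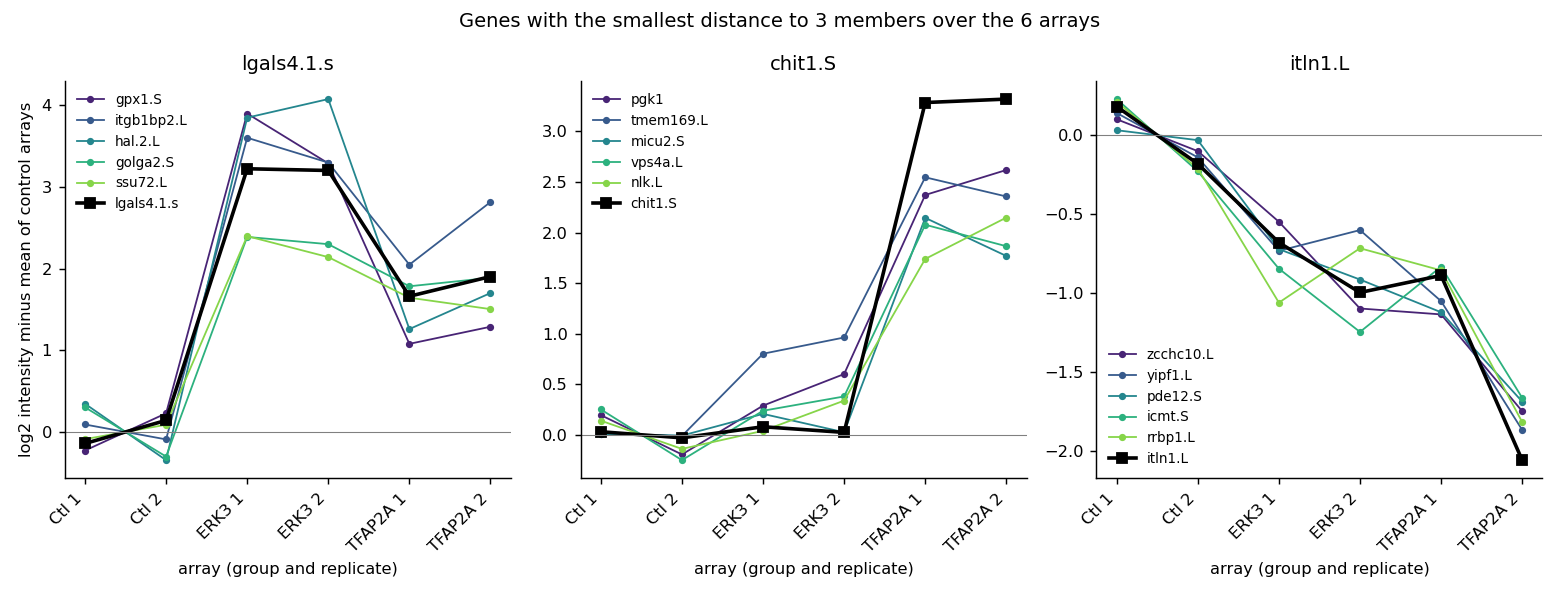
Log2 intensity minus the mean of the control arrays on each of the 6 arrays, for lgals4.1.s, chit1.S and itln1.L (black squares) and the 5 genes nearest to each (coloured circles); lines only join the points of a gene. The TFAP2A values of chit1.S lie above those of its 5 nearest genes, while itln1.L runs among its own down to TFAP2A MO1/2 replicate 2, where it is lowest.

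A list of chitin, chitooligosaccharide and amino-sugar genes, chit1.S left out, held 6 genes, and ctbs.S was the one that passed the test. It encodes the lysosomal di-N-acetylchitobiase, which trims the N-acetylglucosamine core left from degraded glycoproteins. Intensities of ctbs.S were 2828 and 2727 in control caps, 1673 and 1736 with ERK3 MO1/2, and 1055 and 1219 with TFAP2A MO1/2. The 3 groups did not overlap. With ERK3 MO1/2 it fell by 0.70 ± 0.13 (limma adjusted p = 0.0274) and with TFAP2A MO1/2 it fell by 1.29 ± 0.13 (0.00846), beside 3.95% of 11303 genes higher and 7.88% lower with ERK3 MO1/2, and 4.91% and 7.41% with TFAP2A MO1/2. The other 5 genes did not pass in either knockdown. Among them chia.S, the gene of acidic chitinase, read 5.52 to 7.11 over the 6 arrays. Over the 6 genes the median change with ERK3 MO1/2 was 0.15, and for TFAP2A MO1/2 it was 0.14, against 0.01 for all genes in both.

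Of 26 other lectin genes, 2 fell in each knockdown and 0 rose, a share near the 7.88% and 7.41% of all genes that were lower, with medians of 0.09 and 0.00. Both were copies of calreticulin, a lectin chaperone of the endoplasmic reticulum. Intensities of calr.L were 2868 and 2757 in control caps, 1288 and 1430 with ERK3 MO1/2, and 1846 and 1796 with TFAP2A MO1/2, changes of -1.05 ± 0.12 (limma adjusted p = 0.0106) and -0.63 ± 0.12 (0.0305). The S copy, calr.S, changed by -0.65 ± 0.15 (0.0494) and -0.90 ± 0.15 (0.0216). The 24 genes that did not pass include the ficolins and the collectin gene colec11.L, which encode soluble lectins of innate defence. For colec11.L all knockdown arrays lay above the control arrays, with changes of 0.79 ± 0.32 with ERK3 MO1/2 (limma adjusted p = 0.175) and 1.04 ± 0.32 with TFAP2A MO1/2 (0.0965). Of the 26 genes, 10 had every group mean under the lower quartile.

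In the list of galectin ligands and of enzymes that build N-acetyllactosamine, 9 of 50 genes fell and 3 rose with ERK3 MO1/2, beside 7.88% lower and 3.95% higher of all genes. After TFAP2A knockdown 8 fell and 2 rose, beside 7.41% and 4.91%, with medians of -0.03 and -0.0047. The gene b3gnt5.L, whose enzyme starts the lacto-series glycolipid chain, read 98.9 and 118.6 in control caps, 22.1 and 29.0 with ERK3 MO1/2, and 37.8 and 43.3 with TFAP2A MO1/2. It changed by -2.10 ± 0.19 (limma adjusted p = 0.00807) and -1.42 ± 0.19 (0.0125), and its S copy, b3gnt5.S, by -1.46 ± 0.19 (0.0126) and -0.82 ± 0.19 (0.0456). All knockdown arrays of both copies lay below the control arrays.

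The Golgi UDP-galactose transporter gene slc35a2.L read 329.5 and 338.2 in control caps, 139.7 and 159.8 with ERK3 MO1/2, and 116.5 and 85.9 with TFAP2A MO1/2, changes of -1.16 ± 0.18 (limma adjusted p = 0.0182) and -1.74 ± 0.18 (0.00855). Its S copy, slc35a2.S, chosen after its values were seen, moved the other way, from 293.3 and 301.1 to 437.4 and 400.1 with ERK3 MO1/2 and to 515.7 and 499.4 with TFAP2A MO1/2, where it rose by 0.77 ± 0.12 (0.0175). The change of slc35a2.S with ERK3 MO1/2 was 0.49 ± 0.12 and did not pass (limma adjusted p = 0.0546). Whether the probe set of slc35a2.S also takes up other transcripts was not tested. With TFAP2A MO1/2 the UDP-N-acetylglucosamine transporter gene slc35a3.2.S fell by 1.24 ± 0.16 (0.0116) and the lactosamine chain gene b3gnt3.2.L fell by 0.97 ± 0.12 (0.0116). The branching enzyme gene mgat4a.L, which adds an antenna to N-glycans, rose from 18.3 and 15.6 to 55.8 and 77.4 with ERK3 MO1/2, by 1.96 ± 0.19 (0.00859), and to 43.7 and 43.0 with TFAP2A MO1/2, by 1.36 ± 0.19 (0.0139). Leaving out 1 array changed the number of genes called in these 3 lists in both knockdowns. The share of all genes called in those fits is not given, so nothing about the lists is read from this.

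**Figure D4:**
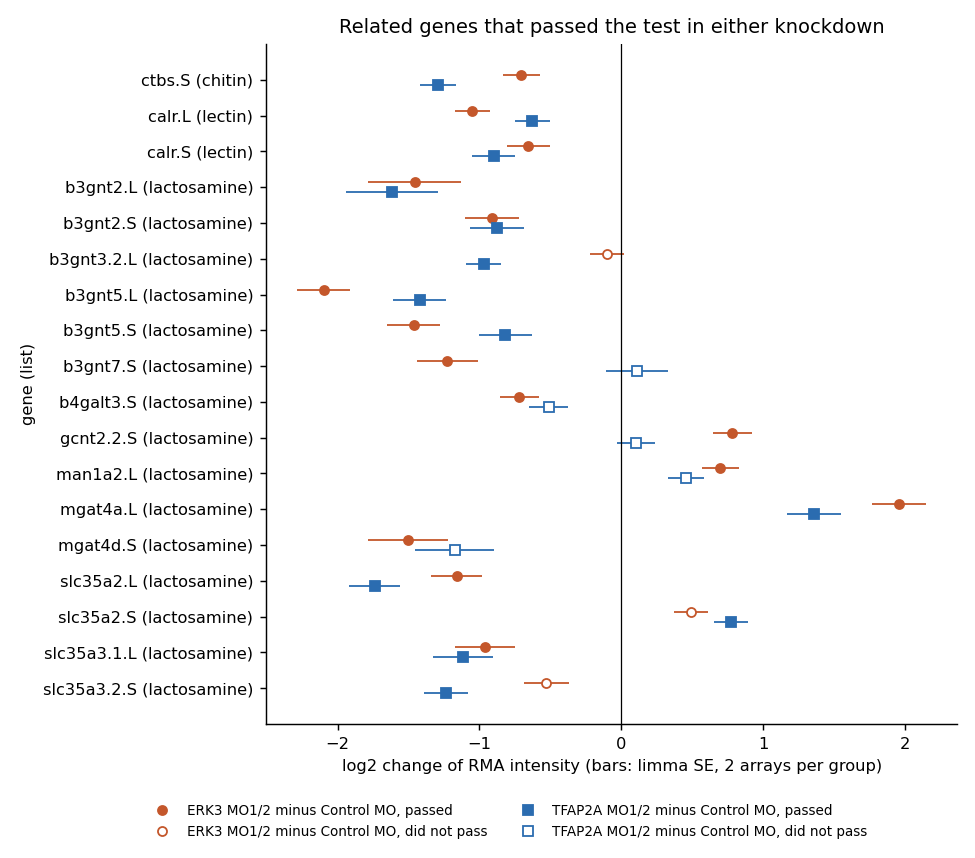
Log2 change against control caps for the genes of the 3 related lists that passed the test in either knockdown, with ERK3 MO1/2 as circles and TFAP2A MO1/2 as squares; filled symbols passed, open ones did not, and bars are the SE of limma's fit. The falls of b3gnt5.L (-2.10 and -1.42) and the rises of mgat4a.L (1.96 and 1.36) are in view, and slc35a2.L and slc35a2.S lie on opposite sides of 0.

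Markers of the cell types that could carry these transcripts were read beside the members. Shares of all genes lower and higher, given above, are the background for each marker count. Superficial epidermis markers, such as keratins and uroplakins, comprised 22 genes, 7 of them with every group mean under the lower quartile, summing to between 42923 and 46105 in control caps, 36765 and 39424 with ERK3 MO1/2, and 31735 and 32439 with TFAP2A MO1/2, and 3 and 5 of them fell. Beside itln1.L, 11 goblet cell genes, intelectins left out, summed to 2448 and 2785 in control caps, 851.5 and 1325 with ERK3 MO1/2, and 1025 and 1153 with TFAP2A MO1/2. Of these, 2 fell with ERK3 MO1/2 and 3 with TFAP2A MO1/2, none rose, and 4 had every group mean under the lower quartile. They were agr2.S, with changes of -1.69 ± 0.21 and -1.27 ± 0.21, and agr2.L, with -2.37 ± 0.51 and -2.40 ± 0.51. With TFAP2A MO1/2 the calpain gene capn8.1.L also fell, with -1.06 ± 0.23. Both agr2 copies encode a disulfide isomerase of mucus cells and are also on the cement gland list. Which cell type their falls belong to was not tested. In control caps agr2.S read 844.5 and 835.9 and agr2.L 389.0 and 543.0, a large part of the goblet sums. The part of goblet cells in the lower itln1.L values was not tested.

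Beside chit1.S, 22 myeloid and blood cell genes summed to between 660.7 and 900.3 in control caps, 406.3 and 659.2 with ERK3 MO1/2, and 612.5 and 744.4 with TFAP2A MO1/2. With TFAP2A MO1/2, where chit1.S was higher, limma called 0 of the 22, and 10 had every group mean under the lower quartile. With ERK3 MO1/2 the blood regulator gene runx1.L and the myeloid factor gene cebpa.L changed by -1.55 ± 0.21 and -1.68 ± 0.31. The list also holds pxn.S, which changed by -0.72 ± 0.16 with ERK3 MO1/2. It is the gene of the adhesion protein paxillin and is not a marker of blood cells. Its 75.9 and 92.2 in control caps are part of the sums above. Beside lgals4.1.s, 17 endoderm and gut genes summed to between 981.5 and 1536 in control caps, 667.9 and 1121 with ERK3 MO1/2, and 1014 and 1714 with TFAP2A MO1/2. Both copies of the endoderm factor gata4 fell with ERK3 MO1/2, with changes of -1.03 ± 0.12 for gata4.L and -1.12 ± 0.21 for gata4.S, and 0 of the 17 rose in either knockdown. The TFAP2A change of the endoderm factor gene sox17b.1.S, named after its values were seen, was 1.73 ± 0.41 and did not pass (limma adjusted p = 0.0504). In the same list a2m.S, also named after its values were seen, changed by -1.74 ± 0.50 and did not pass (0.0819). Over the 17 genes the median change with TFAP2A MO1/2 was 0.11. The part of these cells in either result was not tested.

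In the other marker lists no gene rose in either knockdown. With ERK3 MO1/2 and TFAP2A MO1/2, falls numbered 0 and 1 of 7 small secretory cell genes, 2 and 4 of 16 ionocyte genes, 1 and 1 of 15 multiciliated cell genes, 2 and 3 of 3 basal epidermis genes, and 3 and 5 of 8 cement and hatching gland genes. They numbered 3 and 1 of 11 mesoderm genes, 1 and 0 of 10 neural genes, and 2 and 1 of 8 maternal and oocyte genes. The cement gland list shares agr2.L and agr2.S with the goblet list. Of 148 different marker genes, 22 fell in each knockdown, beside 7.88% and 7.41% of all genes, and 0 rose, beside 3.95% and 4.91%. In fits chosen after seeing the data, the number of marker genes called changed in both knockdowns when an array was left out. The share of all genes called in those fits is not given, so nothing about the markers is read from this.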

How the data were processed

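The authors deposited linear intensity values of probe sets, made from GeneChip Xenopus laevis Genome 2.0 arrays with RMA in Expression Console after image analysis in GeneChip Operating Software 1.4, per the series' design text. Labelled target came from 250 ng of total RNA, per the labels. RMA aligns the arrays, so a change that most transcripts share can be hidden. The 96 manufacturer controls were left out of 32635 probe sets. Names came from a platform annotation of 2016, updated through RefSeq, and all 19 members matched it; no sequence or coordinates are given. Log2 values were fitted with limma 3.58.1 in R 4.3.3, as 3 group means over the 6 arrays, two-sided tests and Benjamini-Hochberg adjustment within each contrast. In lists, a gene was represented by its brightest single-symbol probe set, L and S copies apart. The scripts were tested on simulated data. Where 1 group of a comparison was under the lower quartile on both arrays, the other group's mean is set against that quartile for a called member. Where all groups were under it, no fold is given for the member. The text gives array values for members that reach the median probe set. From the related, goblet, blood and endoderm lists it names up to 4 called genes by adjusted p. For the other marker lists it gives counts, without naming genes by that rule. Arrays have no read depth, and 2 per group limit precision. The p-values and SEs rest on the spread between these arrays, which limma's moderated fit draws towards a value estimated over all probe sets. Members, lists and rules were chosen with earlier results of these data known.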

Additional observations from a re-analysis of the deposited data

How the results depend on the processing

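The called changes of lgalsl.S and lgals9b.L kept their direction under each alternative run for them. In several of these the fitted change is the same by construction, so its direction could not turn. They are low probe sets left out, the trended, robust variance, the fit of the 4 arrays compared and the replicate block. The same holds for leaving out an array of the group not compared. The gene lgals9b.L has no value with low probe sets left out. Among the 17 tested probe sets, 2 were called with ERK3 MO1/2, 1 with TFAP2A MO1/2 and 0 in the direct comparison. For ERK3 MO1/2, 3 were called with median-centred arrays and 3 with arrays quantile-normalized again. With low probe sets left out 2 were called for ERK3 MO1/2, lgalsl.S and lgals4.2.L. With ERK3 MO1/2 the count was 1 with an offset of 16 before the log, 1 in a fit of the 4 arrays compared, and 0 to 1 with an array left out. With TFAP2A MO1/2 it was 2 with low probe sets left out and 0 to 2 with an array left out. In the direct comparison it was 1 with low probe sets left out, 1 with median-centred arrays and 1 with a trended, robust variance, and 0 with any array left out. With a replicate block the counts were 4, 2 and 2 for ERK3 MO1/2, TFAP2A MO1/2 and the direct comparison. The share of all probe sets called is not given for any of these alternatives, so nothing about the members is read from the counts. The block adds itln1.L (adjusted p = 0.0332 and 0.00469) and lgals4.2.L (0.0217), and in the direct comparison lgals4.2.L (0.0217) and lgals9b.L (0.00663), but the labels do not say what a shared replicate number stands for. Differences between replicates correlated across probe sets at 0.54, 0.55 and 0.59 between the groups, a hint of pairing from the data and not the design. In the lists, 4 lectin genes were called with ERK3 MO1/2 when a gene's probe sets were averaged. With an array left out, 0 to 1 chitin, 0 to 1 lectin and 0 to 6 lactosamine genes were called with ERK3 MO1/2, and 0 to 1, 0 to 2 and 0 to 11 with TFAP2A MO1/2; the cause of these changes was not tested. Signal below the median probe set in every group limits 10 of the 19 probe sets.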
